A study of Mus musculus with 18 samples.

Results

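The genes described here encode the replication-dependent core histones and the linker histones of the mouse. They were chosen by name, as every protein-coding gene whose GENCODE symbol is H1f, H2ac, H2bc, H3c or H4c followed by a number, and not by their level in any tumor. Earlier results of these data were known when the rule was set. The rule took 73 of the 57126 genes in the count table: 11 linker histone (H1) genes, 18 H2A, 19 H2B, 12 H3 and 13 H4 genes. RNA was sequenced from 18 mammary tumors of female mice in which adenovirus carrying Cre recombinase (Ad-Cre) had been injected into the mammary ducts. Cre removed a conditional wild-type Trp53 sequence in the infected epithelium. The 7 MaP R172H/- tumors then carried the R172H missense allele of Trp53 opposite a null allele, the 5 MaP R245W/- tumors carried the R245W missense allele opposite a null allele, and the 6 MaP -/- tumors had lost both alleles. The labels give the Rosa26 LSL-TdTomato/+ reporter to 3 of the MaP R172H/- and 3 of the MaP R245W/- mice and to none of the MaP -/- mice, and they give no ages. Stroma and immune cells in each tumor kept wild-type Trp53, and the 6 MaP -/- tumors came from 4 mice. Tumors are named here by their sample titles, but for the libraries titled JM779-T1 and JM836-T1 the study lists the other tumor of the same mouse as the sequenced one, so which tumor each holds is not settled here. MaP R172H/- libraries were read on an Illumina HiSeq and all others on an Illumina NovaSeq instrument, so sequencing platform and the MaP R172H/- genotype cannot be told apart. The study classed every MaP R172H/- tumor as luminal B or HER2-enriched and every other tumor as triple-negative. All MaP R172H/- tumors were nonmetaplastic adenocarcinomas, whereas the other groups included metaplastic tumors. Molecular subtype therefore cannot be told apart from the MaP R172H/- genotype either.

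Pairs of H2A, H2B, H3 and H4 proteins form the core of the nucleosome, and H1 binds the DNA where it enters and leaves that core. Replication-dependent histone genes are expressed mainly in S phase, lie in clusters and usually have no introns. Their mRNAs end in a conserved stem-loop instead of a poly(A) tail, and stem-loop binding protein (Slbp) attaches there for processing, export and translation. Some H1 genes and a few core histone genes in the same clusters are instead polyadenylated and expressed outside S phase.

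On GRCm39, most of the 73 genes lay in a pair of clusters on chromosome 13. The cluster at chr13:21899933-22227846 held 23 genes and the cluster at chr13:23715220-24118834 held 31. Another 10 genes lay at chr3:96127181-96177448 and 3 at chr11:58838848-58847656. The remaining 6 genes, H1f0, H1f7, H1f8, H1f9, H1f10 and H4c16, each lay alone. A 16-base stem-loop was found in the 120 genome bases after the stop codon of every H3 and H4 gene, of 17 of 18 H2A genes, of 15 of 19 H2B genes and of 6 of 11 H1 genes. Of these 63 stem-loops, 17 lay wholly or partly outside the annotated gene, among them those of H2ac13 and H3c10. The most frequent form occurred in 39 genes of the H1, H2A, H2B and H3 types, and a form with a different stem occurred in 8 genes, all of them H4. The sequences below show the stem-loop in capitals with 5 flanking bases on each side, in the genome sequence of the transcribed strand, for genes whose values are given further on.
H4c8, chr13:23715628-23715643, plus strand: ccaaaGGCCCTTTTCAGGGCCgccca
H4c16, chr6:136780996-136781011, minus strand: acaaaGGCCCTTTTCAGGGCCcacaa
H4c11, chr13:21919607-21919622, plus strand: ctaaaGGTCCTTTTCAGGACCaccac
H3c6, chr13:23746077-23746092, minus strand: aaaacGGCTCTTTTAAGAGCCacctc
H3c10, chr13:21902265-21902280, plus strand: tcaaaGGCTCTTTTCAGAGCCaccca
H2ac13, chr13:21901009-21901024, plus strand: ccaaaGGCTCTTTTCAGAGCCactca
H2bc7, chr13:23757939-23757954, minus strand: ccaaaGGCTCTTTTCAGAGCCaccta
H1f4, chr13:23805765-23805780, minus strand: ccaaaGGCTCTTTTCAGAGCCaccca
Coordinates are those of the capitals. No such stem-loop was found for H1f0, H1f7, H1f8, H1f9, H1f10, H2ac22, H2bc21, H2bc22, H2bc23 and H2bc24.

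Promoters were searched on both strands for 3 motifs, from 250 bases before to 50 bases after the annotated start, and promoters with at least 1 match were counted. The motif CCAAT was in 58 of the 73 promoters and in 39.9% of 21770 protein-coding promoters. It was in 18 of 18 H2A, 18 of 19 H2B and 11 of 12 H3 promoters, but in 4 of 13 H4 promoters. The motif TATAAA was in 36 of the 73 promoters and in 13.2% of all promoters. The motif ATTTGCA was in 7 H2A and 8 H2B promoters and in none of the other types, against 4.12% of all promoters. In 13 pairs of an H2A and an H2B gene the starts lie 176 to 306 bases apart. In most of these pairs the searched stretches overlap, so 1 site can count for both genes. The 150 bases before the start are printed for H2ac15 and H2bc15, which are transcribed away from each other out of 1 shared region, and for H4c11. Capitals mark matches to these motifs on either strand, which are descriptions of the letters and not of bound factors.
H2ac15, chr13:21937998-21938147, minus strand: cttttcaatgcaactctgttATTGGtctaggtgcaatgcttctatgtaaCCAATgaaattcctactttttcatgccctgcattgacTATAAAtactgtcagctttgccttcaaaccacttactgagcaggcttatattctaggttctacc
H2bc15, chr13:21938143-21938292, plus strand: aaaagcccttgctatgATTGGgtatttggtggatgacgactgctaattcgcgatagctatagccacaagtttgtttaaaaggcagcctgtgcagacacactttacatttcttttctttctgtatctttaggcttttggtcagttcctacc
H4c11, chr13:21919084-21919233, plus strand: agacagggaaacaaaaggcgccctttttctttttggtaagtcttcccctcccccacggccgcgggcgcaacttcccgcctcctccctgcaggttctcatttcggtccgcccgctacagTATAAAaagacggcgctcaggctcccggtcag

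Total counts per tumor were between 23113578 and 37365062, and the histone genes held between 0.069% and 0.433% of them. Trp53, the gene altered in these mice, was at 11.2 to 48.3 CPM (counts scaled to a fixed library total) in MaP R172H/- tumors (median 47.1). It was at 9.06, 11.3, 27.3, 27.6 and 59.1 CPM in MaP R245W/- tumors and at 9.30 to 20.8 CPM in MaP -/- tumors (median 12.2), so the groups overlapped. The log2 fold change of Trp53 was 1.58 in MaP R172H/- against MaP -/- tumors (adjusted p = 0.00794) and 0.95 in MaP R245W/- against MaP -/- tumors (adjusted p = 0.426), by edgeR's quasi-likelihood test with Benjamini-Hochberg adjustment over all genes tested. Summed epithelial markers ran from 179 to 12631 CPM over all tumors and overlapped between the groups. Of the other cell types, immune markers summed to 356 to 513 CPM in MaP R172H/- tumors and 538 to 1363 CPM in MaP -/- tumors, adipocyte markers reached 6050 CPM in 1 MaP -/- tumor, and skeletal muscle markers reached 1269 CPM in 1 MaP R245W/- tumor. In bulk tumor RNA, fewer cells of a type and less RNA per cell cannot be told apart. The labels call the libraries stranded mRNA, whereas the study's methods describe total RNA depleted of ribosomal RNA.

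Summed over each type, RNA of H2A, H3 and H4 genes was higher in every MaP R172H/- tumor than in any MaP -/- tumor. The order of the 3 groups was the same for every type, with the mean highest in MaP R172H/-, intermediate in MaP R245W/- and lowest in MaP -/- tumors, and the groups lay furthest apart for H4. Summed H4 levels were 751 to 1534 CPM in MaP R172H/- tumors (median 1167) and 77.2 to 439 CPM in MaP -/- tumors (median 149). The 5 MaP R245W/- tumors had summed H4 levels of 294 (JM1233), 367 (JM1564), 430 (RM0014), 266 (JM1126) and 778 (JM1133) CPM. The lowest MaP R172H/- tumor was thus below JM1133 and above every other MaP R245W/- and MaP -/- tumor. As group means, H4 stood at 1163 ± 323 CPM (SD, n = 7), 427 ± 207 CPM (SD, n = 5) and 189 ± 128 CPM (SD, n = 6), which put MaP R172H/- tumors 6.16-fold above MaP -/- tumors. The same ratio was 4.40 for H3, 3.13 for H2A, 1.99 for H2B and 1.81 for H1. MaP R245W/- means were 2.26-fold (H4), 2.14-fold (H3), 1.97-fold (H2B), 1.71-fold (H2A) and 1.46-fold (H1) above the MaP -/- means, and the tumors of these groups overlapped for every type. Mean H2B levels were nearly equal in the mutants, at 563 ± 145 CPM (SD, n = 7) in MaP R172H/- and 559 ± 204 CPM (SD, n = 5) in MaP R245W/- tumors. Among MaP -/- tumors JM779-T1 was the highest for every type, and among MaP R245W/- tumors JM1133 was.

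**Figure D1:**
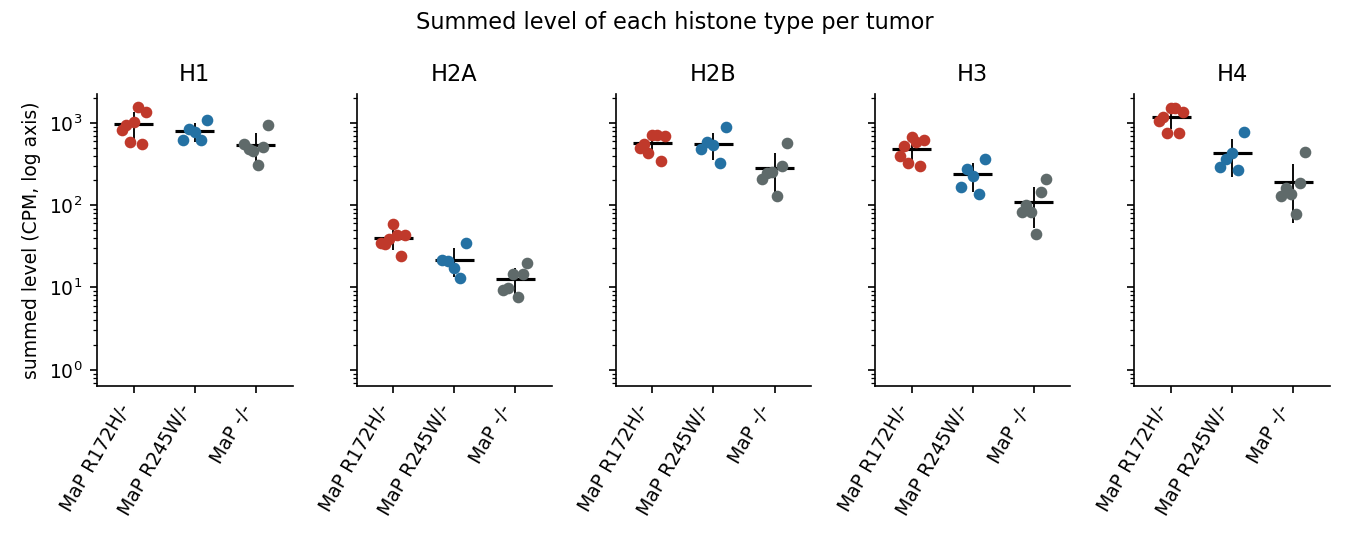
Summed level of each histone type per tumor, in CPM on a log axis, in 1 panel per type. Points are tumors, horizontal lines are group means and vertical lines are 1 SD. For H4 the MaP R172H/- tumors (751 to 1534 CPM) lie above all MaP -/- tumors (77.2 to 439 CPM), whereas for H1 and H2B the groups overlap.

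The make-up of the histone RNA differed between the groups as well as its amount. H4 genes gave 33.5 to 38.3% of the histone counts in MaP R172H/- tumors, 17.6 to 24.6% in MaP R245W/- tumors and 13.4 to 20.1% in MaP -/- tumors. The MaP R172H/- tumors therefore did not overlap with the others in this share, which is free of the library size. H1 genes gave 25.9 to 35.7%, 34.7 to 45.2% and 43.5 to 56.1% in the same order of groups, and MaP R172H/- and MaP -/- tumors did not overlap. The share of H2B was 16.1 to 20.3% in MaP R172H/- tumors and at least 21.1% in every other tumor. H3 genes gave 13.2 to 16.6% in MaP R172H/-, 10.1 to 13.4% in MaP R245W/- and 7.95 to 12.5% in MaP -/- tumors. In the H3 share too, MaP R172H/- and MaP -/- tumors did not overlap. H2A genes never gave more than 1.81% of the histone counts. By the study's methods, reads were 76 bases long in MaP R172H/- libraries and 100 bases in the others. Stretches found in more than 10 genes made up 5.30% of the median H2B gene at 76 bases and 0.0% at 100 bases. For H3 these values were 3.09% and 0.0%, for H2A 23.9% and 18.2%, and for H4 and H1 0.0% at both lengths. No H4 stretch occurred in more than 10 genes, so this cut leaves out stretches shared among H4 genes. Stretches found in no other gene made up 75.6% of the median H4 gene at 76 bases and 81.0% at 100 bases. For H1 this was 100% at both lengths. At 76 bases it was 57.7% for H4c8, 32.1% for H4c12, 78.3% for H4c11 and 94.6% for H4c16. The part of read length in the shares of the types was not tested. Per kilobase of exon, the most abundant H2A gene, H2ac15, averaged 12.2 CPM over the 18 tumors, against 78.2 CPM for H3c2, 109 CPM for H2bc14, 121 CPM for H1f1 and 171 CPM for H4c8, each the highest of its type.

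**Figure D2:**
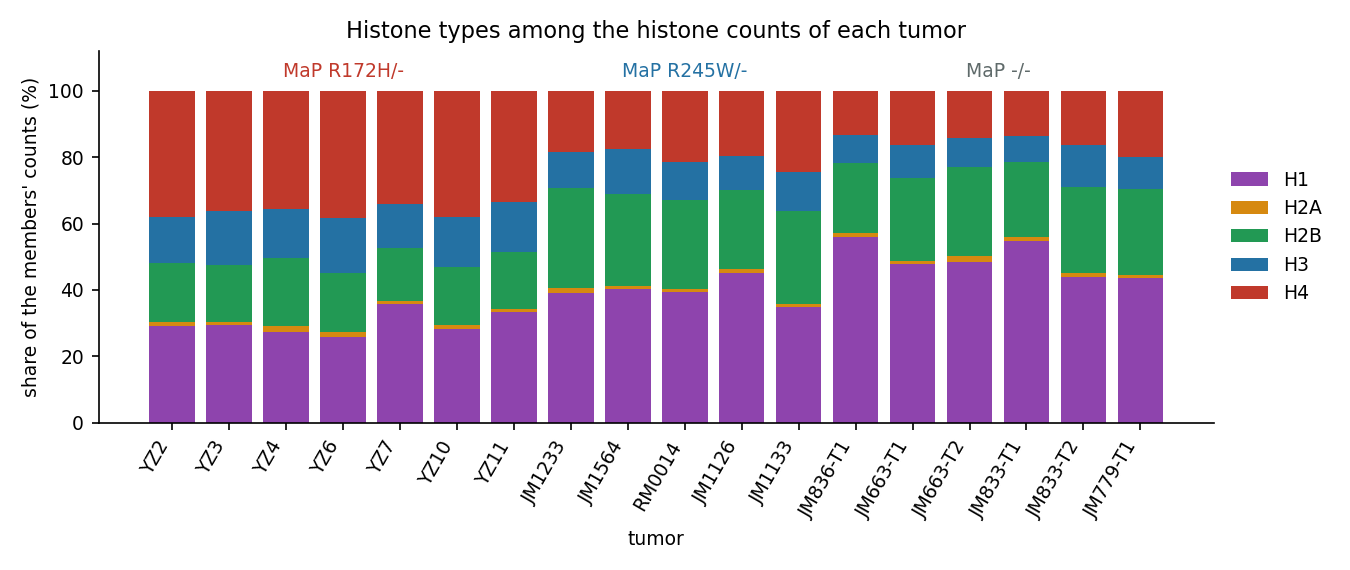
Share of each histone type among the histone counts of each tumor, in percent, with tumors ordered by group along the horizontal axis. H4 takes 33.5 to 38.3% in the MaP R172H/- tumors and at most 24.6% in the others, and H2A is a thin band of under 2% throughout.

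Levels were next compared gene by gene, to ask which histone genes differed between tumors with the R172H allele and tumors without p53. In MaP R172H/- against MaP -/- tumors, 32 of the 58 histone genes that passed the filter on low counts were higher at an adjusted p under 0.05 and 0 were lower. Of all 20954 genes tested, 3.67% were higher and 4.73% lower. Of the 58, 56 had a log2 fold change above 0, against 50.2% of all genes, and the median was 1.54, against 0.0027 over all genes tested. For 25 of them every MaP R172H/- tumor was above every MaP -/- tumor, which held for 2.31% of all genes. The called genes were 10 of 13 tested H4, 8 of 10 H3, 8 of 12 H2A, 3 of 16 H2B and 3 of 7 H1 genes, and the median log2 fold changes of these types were 2.43, 1.89, 1.94, 0.91 and 0.91. Adjusted p-values of single genes, here and below, are from edgeR's quasi-likelihood test with Benjamini-Hochberg adjustment over all genes tested. Platform and molecular subtype cannot be told apart from genotype in these differences. The 15 genes that did not pass the filter included 6 with no count in any tumor (H1f7, H2ac18, H2ac19, H2bc18, H3c13 and H3c14), of which all but H1f7 share exon sequence with an annotated noncoding RNA.

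**Figure D3:**
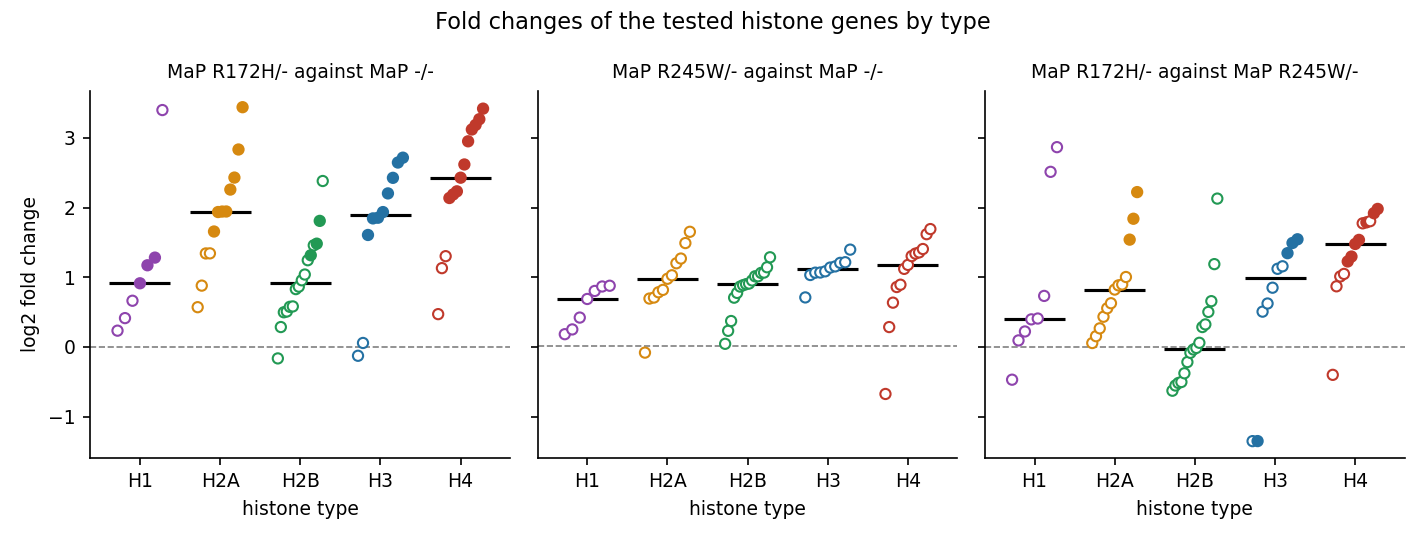
Log2 fold change of each tested histone gene, grouped by type, in the 3 comparisons. Each point is a gene, filled where the adjusted p was under 0.05, black lines are medians of a type and the dashed line is the median of all genes tested. H4 has the highest median in each panel (2.43, 1.18 and 1.48) and filled points are absent from the middle panel.

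H4 genes encode nearly identical proteins, and they showed the highest fold changes of the abundant histone genes. H4c8 was at 117 to 223 CPM in MaP R172H/- tumors (median 160) and at 7.19 to 29.9 CPM in MaP -/- tumors (median 13.4), with a log2 fold change of 3.42 (SE 0.32, adjusted p = 8.1e-05). No MaP -/- tumor came near the lowest MaP R172H/- tumor. Of the 470 exon bases of H4c8, 461 are shared with an annotated gene on the other strand, and the part of this overlap in its counts was not tested. H4c12 (52.9 to 128 against 3.52 to 22.03 CPM) and H4c11 (25.5 to 73.3 against 2.77 to 9.29 CPM) had log2 fold changes of 3.27 (SE 0.41, adjusted p = 0.000505) and 3.18 (SE 0.33, adjusted p = 0.000155). H4c16, which lies alone on chromosome 6 and carries the same stem-loop as H4c8, was at 32.7 to 343 CPM in MaP R172H/- tumors (median 128). In MaP -/- tumors it was at 4.09 to 55.01 CPM (median 8.84), and the highest of these, JM779-T1, overlapped with MaP R172H/- tumors. Its log2 fold change of 3.12 (SE 0.74, adjusted p = 0.021) was 4.19 (adjusted p = 0.00221) without JM779-T1. H4c2 had the lowest value of the type, at 1.14 to 3.97 CPM against 0.752 to 3.06 CPM, with a log2 fold change of 0.47 (SE 0.37, adjusted p = 0.461). H4c4, which alone supplied 27.5% of all H4 counts on average, was at 190 to 379 against 24.1 to 116 CPM.

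H3 genes of the larger chromosome 13 cluster all rose, 7 of 7, and none of the 7 overlapped between the groups. H3c6 was at 55.1 to 149 CPM in MaP R172H/- tumors (median 110) and at 6.43 to 27.8 CPM in MaP -/- tumors (median 13.2), a log2 fold change of 2.72 (SE 0.35, adjusted p = 0.000635). H3c8 (16.7 to 63.3 against 3.22 to 12.2 CPM) and H3c2 (55.1 to 115 against 6.92 to 31.2 CPM) had log2 fold changes of 2.65 (SE 0.41, adjusted p = 0.00186) and 2.43 (SE 0.34, adjusted p = 0.000903). The 3 tested H3 genes outside that cluster had lower values. H3c11, in the other chromosome 13 cluster, was called, at 23.1 to 51.5 against 4.75 to 21.8 CPM with no overlap (log2 fold change 1.61, SE 0.33, adjusted p = 0.00932). H3c10, in the same cluster as H3c11, was at 3.79 to 12.2 CPM in MaP R172H/- and 3.07 to 14.6 CPM in MaP -/- tumors, and its log2 fold change was -0.13 (SE 0.35, adjusted p = 0.86). Of the 76-base stretches of H3c10, the read length of the MaP R172H/- libraries, 6.55% occurred in no other gene, so the division of reads between H3c10 and its copies is uncertain. H3c15 on chromosome 3 was near 1 CPM in both groups, with a log2 fold change of 0.06 (SE 0.42, adjusted p = 0.951).

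H2A genes had low levels and large fold changes. Of all types they had the fewest 76-base stretches found in no other gene, a median of 29.8%, against 67.0% for H2B. The exons of each H2A gene also overlap those of an annotated gene on the other strand, which held for 30 of the 73 histone genes in all. Whether counts were lost in these ways was not tested. H2ac15 was at 6.51 to 14.8 CPM in MaP R172H/- tumors (median 8.95) and 0.511 to 2.74 CPM in MaP -/- tumors (median 0.946), a log2 fold change of 2.83 (SE 0.44, adjusted p = 0.00184), and the groups did not overlap. H2ac13 had the highest log2 fold change of any histone gene, 3.44 (SE 0.50, adjusted p = 0.00118), on levels of 1.14 to 4.41 against 0.0301 to 0.424 CPM. Only 10.7% of its 76-base stretches occurred in no other gene and many occurred in more than 10 genes, so its counts are uncertain. H2ac11 stayed under 1 CPM in every tumor (log2 fold change 2.43, SE 0.55, adjusted p = 0.0166). H2ac25, the only H2A gene of the small chromosome 11 cluster, was at 2.80 to 13.2 against 3.64 to 4.69 CPM and had the lowest value of its type, 0.57 (SE 0.37, adjusted p = 0.357). Of the 2146 exon bases of H2ac25, 1531 are shared with Trim17 on the same strand. The part of this overlap in its counts was not tested. At the median, H2ac25 gave 14.9% of the H2A counts in MaP R172H/- and 35.1% in MaP -/- tumors, so it also weighs on the summed H2A levels. The call for H2ac21 on chromosome 3 (adjusted p = 0.0374) was made in 5 of 13 fits that each left out 1 tumor.

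H2B genes differed least among the core histones, although they were abundant. H2bc7 had the highest log2 fold change of the called genes, 1.81 (SE 0.37, adjusted p = 0.00914), at 7.50 to 31.4 CPM in MaP R172H/- tumors (median 18.8) and 3.10 to 8.91 CPM in MaP -/- tumors (median 4.39). H2bc6, at 58.0 to 117 against 15.5 to 56.1 CPM, had a log2 fold change of 1.48 (SE 0.28, adjusted p = 0.0061) with no overlap between the groups, and H2bc4 had 1.32 (SE 0.25, adjusted p = 0.00675). H2bc6 and H1f4 share 528 exon bases on the same strand. On opposite strands, H2bc6 shares 124 exon bases with H4c4, and H2bc4 shares 301 with H2ac6. The part of these overlaps in the counts was not tested. The remaining 13 tested H2B genes did not pass. H2bc14, the most abundant per kilobase, was at 31.6 to 81.5 against 14.9 to 84.1 CPM (log2 fold change 0.51, SE 0.34, adjusted p = 0.375). H2bc27 and H2bc26 on chromosome 11 had log2 fold changes of 2.38 (SE 0.87, adjusted p = 0.108) and 1.46 (SE 0.66, adjusted p = 0.19), and both were highest in tumor YZ7, at 22.3 and 11.2 CPM. Without YZ7 the value of H2bc27 was 1.16 and that of H2bc26 was 0.81. H2bc23, under 1 CPM in every MaP R172H/- tumor, had the lowest value of the type (-0.16, SE 0.55, adjusted p = 0.882).

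Linker histone genes split into a group that rose and a group that did not pass. H1f4, at 149 to 278 CPM in MaP R172H/- tumors (median 235) and 52.6 to 149 CPM in MaP -/- tumors (median 99.9), had a log2 fold change of 1.17 (SE 0.24, adjusted p = 0.00994), and the tumors of the groups did not overlap. H1f3 was at 95.7 to 267 against 33.5 to 106 CPM (log2 fold change 1.28, SE 0.31, adjusted p = 0.0215), with an overlap at the edge. H1f2 was at 95.3 to 254 against 69.995 to 126 CPM (log2 fold change 0.91, SE 0.24, adjusted p = 0.034), a call made in 4 of 13 fits without 1 tumor. H1f1 (45.6 to 240 against 19.1 to 146 CPM) and H1f5 (48.6 to 106 against 25.2 to 119 CPM) had log2 fold changes of 0.41 (SE 0.44, adjusted p = 0.6) and 0.23 (SE 0.31, adjusted p = 0.687). H1f0, the replication-independent linker histone of differentiated cells, was at 75.5 to 490 against 68.0 to 303 CPM, a log2 fold change of 0.66 (SE 0.48, adjusted p = 0.42). The testis histone H1f6 had a log2 fold change of 3.40 (SE 1.16, adjusted p = 0.0871) that rested on 17.6 CPM in YZ7, since every other tumor was under 1 CPM. H1f6 passed the filter in 8 of 13 fits that each left out 1 tumor, and the fit without YZ7 was among those it did not pass. H1f8, the oocyte form, and H1f9 stayed at or under 0.229 CPM, and H1f10 ran from 0 to 5.87 CPM with 0 counts in 5 tumors.

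Along the chromosomes, called genes of different types stood side by side. The larger chromosome 13 cluster had 21 of 29 tested genes called (median log2 fold change 1.85), the smaller had 8 of 19 (median 1.13), the chromosome 3 cluster had 2 of 5 (H2ac21 and H4c14, median 1.34) and the chromosome 11 cluster had 0 of 3 (median 1.46). Within the smaller chromosome 13 cluster, 4 of 4 tested H2A genes were called (median 2.63) and 0 of 7 H2B genes were (median 0.58). In the larger cluster 3 of 5 H2A genes (median 1.94) and 3 of 6 H2B genes (median 1.09) were called.

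**Figure D4:**
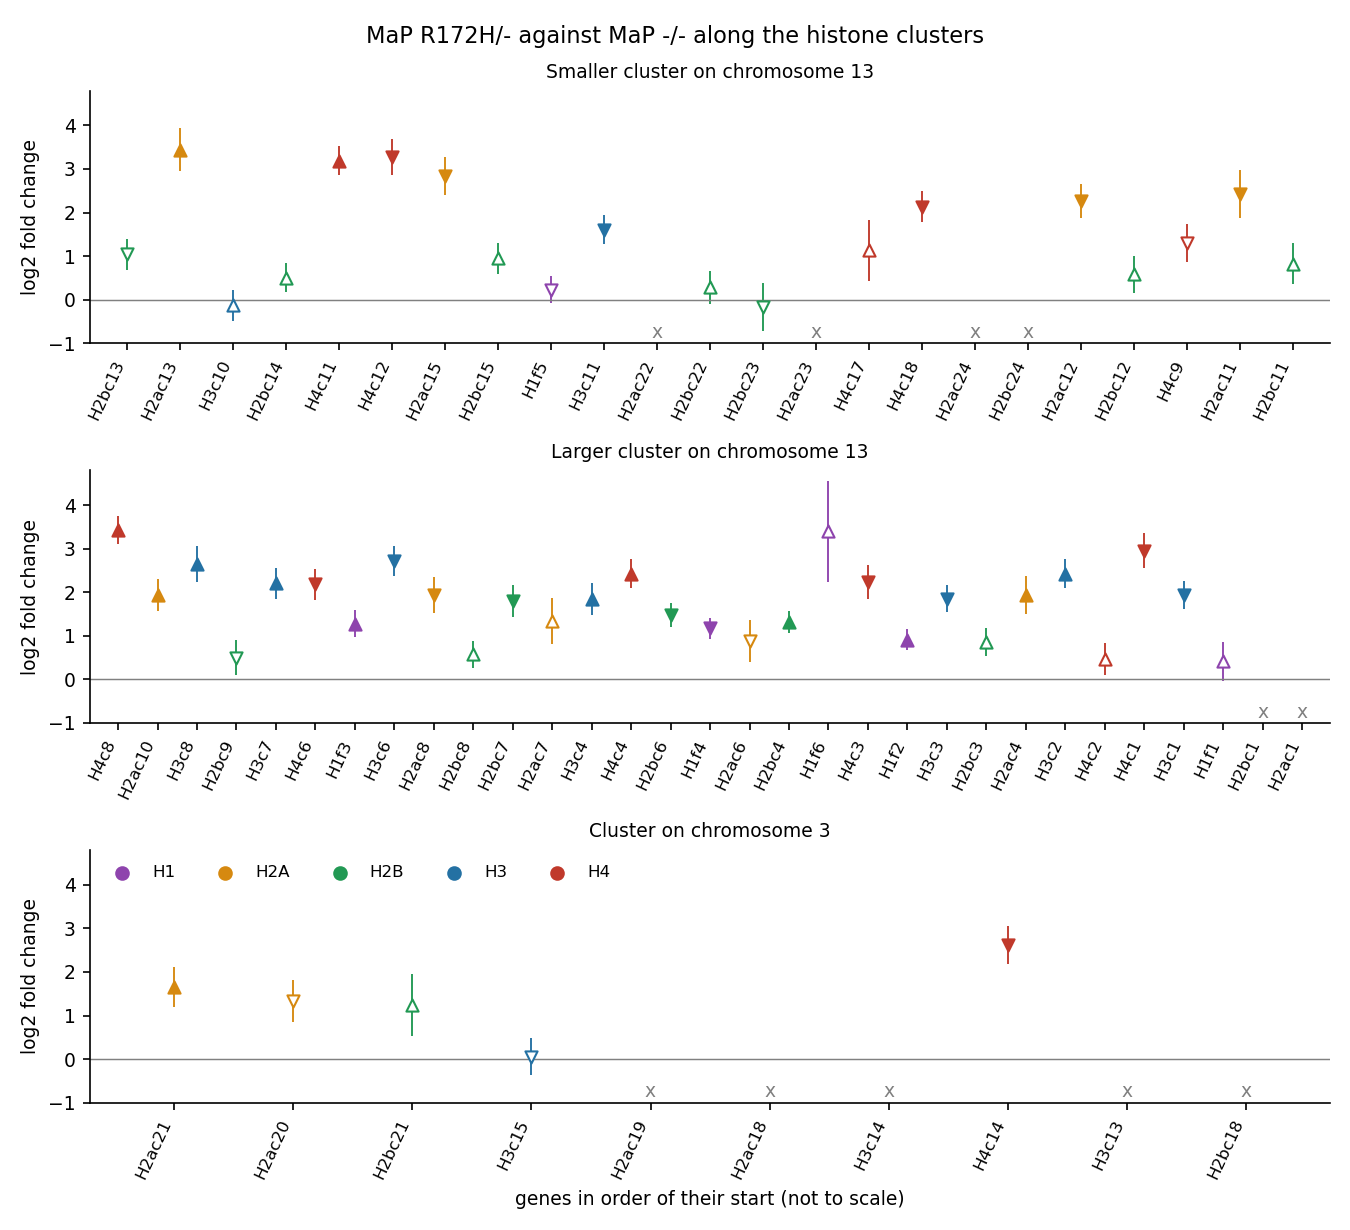
Log2 fold change in MaP R172H/- against MaP -/- tumors of each histone gene in the chromosome 13 and chromosome 3 clusters, in the order of the gene starts and not to scale. Bars are 1 SE, triangles point up for plus-strand and down for minus-strand genes, colors are types, filled symbols have an adjusted p under 0.05 and crosses are genes that did not pass the filter on low counts. In the upper panel the filled H2A symbols stand above open H2B symbols beside them.

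This contrast was seen between direct neighbors. The 73 genes held 13 pairs of an H2A and an H2B gene whose starts lie 176 to 306 bases apart, among them H2ac15 and H2bc15, whose shared upstream sequence is printed above. In 9 pairs both genes were tested. H2A had the larger log2 fold change in 6 of the 9, in 5 of which it was called while its H2B partner was not, and in 2 pairs the H2B gene was called while its H2A partner was not. H2ac15 had 2.83 against 0.96 for H2bc15 (adjusted p = 0.115), and H2ac13 had 3.44 against 1.04 for H2bc13 (adjusted p = 0.0831). The pair of H2ac7 and H2bc7 lay the other way, at 1.34 (adjusted p = 0.136) and 1.81. In MaP R245W/- against MaP -/- tumors H2A had the larger value in 3 of 8 pairs. The mean count over all tumors was higher for the H2B gene in 12 of the 13 pairs. Differences within a pair were not tested. In each of the 5 called H2A genes, at least 17.3% of the 76-base stretches occurred in more than 10 genes. For the uncalled H2ac6, H2ac20 and H2ac25 this was at most 6.61%, whereas the uncalled H2ac7 lay within the range of the called genes. Mean counts of the called H2A genes ran from 10.9 (H2ac11) to 126 (H2ac15). Read length differed between these groups of tumors, and its part in the contrast between neighbors was not tested.

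**Figure D5:**
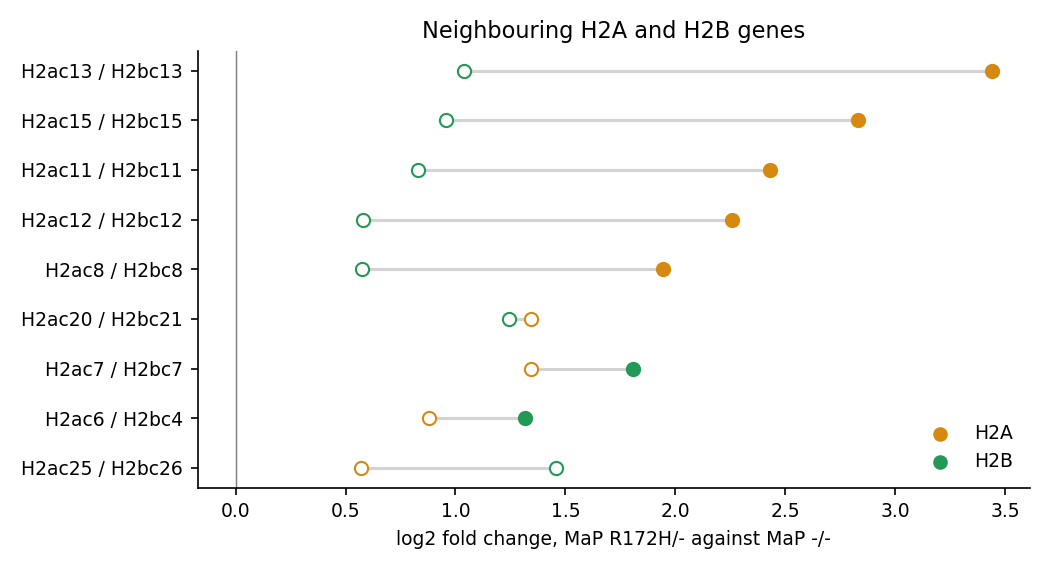
Log2 fold change in MaP R172H/- against MaP -/- tumors of the H2A and the H2B gene of each of the 9 neighboring pairs in which both were tested. Symbols are filled where the adjusted p was under 0.05. H2A lies to the right of H2B in 6 pairs, by the widest margin for H2ac13 and H2bc13 (3.44 against 1.04).

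Several measured features moved with these differences. Histone transcripts are short and rich in G and C, with a median exon length of 620 bases and a median GC content of 58.1%. Among 443 other protein-coding genes with a GC content of 60% or more, 19.0% were higher in MaP R172H/- against MaP -/- tumors, with log2 fold changes of 0.63 at the median, whereas among 3747 with less than 45% these were 0.694% and -0.17. Among 138 other protein-coding genes under 1000 bases, 20 were higher and 19 lower (median -0.22), and among the 47 of these with a GC content of 55% or more, 23.4% were higher (median 0.30). After each tumor's trend of level on GC content and length was removed, 27 of the 58 histone genes were higher, against 1.57% of all genes, and their median log2 fold change was 1.46. Genes with a stem-loop included all 32 called genes (of 54 tested), and the 4 tested genes without it, H1f0, H2bc21, H2bc22 and H2bc23, had 0 called genes and a median of 0.47. Other RNAs without a poly(A) tail also differed. Of 14 tested, 6 were higher, among them the Y RNA Rny3 (log2 fold change 2.55, adjusted p = 0.00106), and 2 were lower, among them Rn7s1 (-2.32, adjusted p = 0.00118). Their summed level, most of it Rn7sk, was 16350 to 69297 CPM in MaP R172H/-, 8926 to 14893 CPM in MaP R245W/- and 2893 to 7207 CPM in MaP -/- tumors, with no overlap between groups, and its part in the histone differences was not tested. Genes of which more than 50% of the 76-base stretches occur in no other gene had 21 of 37 called (median 1.48), and those with at most 50% had 11 of 21 (median 1.61).

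For the R245W allele, no histone gene passed the test. In MaP R245W/- against MaP -/- tumors 0 of 57 tested histone genes had an adjusted p under 0.05, as had 0.0% of all 21452 genes tested. At an unadjusted p under 0.05 there were 31 of the 57, against 11.8% of all genes, and with DESeq2 there were 7, against 0.699% of all genes that were higher. Log2 fold changes of the histone genes had a median of 0.98, against 0.02 over all genes, and 55 of 57 were above 0, against 51.8% of all genes. In 0 of the 57 genes did the groups stay apart, against 0.536% of all genes. Type medians were 1.18 for H4, 1.11 for H3, 0.98 for H2A, 0.90 for H2B and 0.69 for H1. Of the 31 genes, 24 were among the 29 tested in the larger chromosome 13 cluster and 7 among the 18 tested in the smaller.

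H4c8 was at 32.3 (JM1233), 40.2 (JM1564), 45.5 (RM0014), 27.4 (JM1126) and 84.9 (JM1133) CPM in the MaP R245W/- tumors. All but JM1126 were above the highest MaP -/- tumor, JM779-T1 at 29.9 CPM, and the log2 fold change was 1.62 (SE 0.38, adjusted p = 0.334). H4c11 was at 10.6, 16.7, 16.5, 6.70 and 32.6 CPM in the same order of tumors (log2 fold change 1.69, SE 0.42, adjusted p = 0.36). H2ac4, at 1.24, 2.55, 2.37, 2.58 and 5.24 CPM against 0.421 to 1.79 CPM in MaP -/- tumors, had 1.65 (SE 0.44, adjusted p = 0.36). H2bc7 was at 11.96, 14.8, 15.8, 6.79 and 18.6 CPM and had 1.29 (SE 0.35, adjusted p = 0.36). H3c15 had the highest value of the H3 genes, 1.396 (SE 0.70, adjusted p = 0.457), from 1 tumor, JM1233, at 8.34 CPM where the other MaP R245W/- tumors were at 0.743 to 1.401 CPM. Without JM1233 its value was 0.17. Among H1 genes the highest value was 0.88 for H1f6 (SE 0.34, adjusted p = 0.38), at levels under 1 CPM, and H1f2 had 0.80 (SE 0.21, adjusted p = 0.36). The 7 genes called with DESeq2 were H4c8, H4c11, H4c1, H2ac4, H2bc6, H2bc7 and H1f2.

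The mutants were also compared directly, in a fit of all 18 tumors. In MaP R172H/- against MaP R245W/- tumors 13 of 60 tested histone genes were higher, against 2.91% of 22481 genes, and 1 was lower, against 6.49%. The median log2 fold change was 0.69. The 13 higher genes were 7 H4, 3 H3 and 3 H2A genes, with 0 of 16 H2B and 0 of 8 H1 genes, and type medians were 1.48 for H4, 0.99 for H3, 0.82 for H2A, 0.40 for H1 and -0.03 for H2B. In 9 genes every MaP R172H/- tumor was above every MaP R245W/- tumor, against 1.9% of all genes. Among them was H4c8, with a log2 fold change of 1.79 (SE 0.34, adjusted p = 0.00252). H2ac13 had the highest value of the called genes, 2.22 (SE 0.48, adjusted p = 0.00701), at 0.530, 0.405, 0.571, 0.255 and 0.880 CPM in the MaP R245W/- tumors. H4c12 had 1.92 (SE 0.43, adjusted p = 0.0092) and H3c6 had 1.54 (SE 0.36, adjusted p = 0.0115). Abundant H2B genes such as H2bc6 (60.3, 70.8, 66.5, 43.7 and 96.4 CPM in MaP R245W/- tumors) overlapped between the mutants, with a log2 fold change of 0.32 (SE 0.27, adjusted p = 0.484). The gene that was lower was H3c10, at 11.2, 22.01, 17.9, 9.41 and 31.9 CPM in MaP R245W/- tumors against 3.79 to 12.2 CPM (log2 fold change -1.35, SE 0.37, adjusted p = 0.0304). Its call was lost in 7 of 21 alternatives, and few of its 76-base stretches are its own. With the trend on GC content and length removed, 8 genes were called, 7 of them higher, against 2.42% of all genes higher and 5.44% lower. With the S-phase score as a covariate, 26 were called, 25 of them higher, against 2.6% of all genes higher and 5.71% lower.

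Genes that act with histones were read from the same fits, to place the histone values beside them. Of 46 S-phase genes tested in MaP R172H/- against MaP -/- tumors, 0 were higher and 2 were lower, the replication clamp Pcna (log2 fold change -0.86, adjusted p = 0.0459) and the clamp loader subunit Rfc4 (-0.99, adjusted p = 0.0446), and the median was 0.03. The S-phase score, the mean log2 CPM of these genes, was 5.22 ± 0.258 (SD, n = 7) in MaP R172H/-, 5.42 ± 0.335 (SD, n = 5) in MaP R245W/- and 5.19 ± 0.49 (SD, n = 6) in MaP -/- tumors, and JM779-T1, the MaP -/- tumor with the most histone RNA, had the highest score of its group (5.95). With this score as a covariate, 41 of the 58 histone genes were called, all higher, against 4.6% of all genes higher and 5.21% lower. Of 30 mitotic genes 0 passed the test (median 0.10), with the proliferation marker Mki67 at 0.09 (adjusted p = 0.862). Of 27 factors for transcription and processing of histone mRNA 0 passed (median 0.08), with Slbp at -0.24 (adjusted p = 0.544) and the histone gene coactivator Npat at 0.12 (adjusted p = 0.791). Of 22 histone chaperones and their partners 0 passed (median 0.13), the nearest being Nap1l1 (-0.60, adjusted p = 0.0756). Of 10 histone variant genes outside the naming rule, H2ax (1.34, adjusted p = 0.0203), whose mRNA can end in a stem-loop, and H2az2 (0.93, adjusted p = 0.0176) were higher. Between the mutants, 4 of 46 S-phase genes were lower in MaP R172H/- tumors, among them Pcna (-1.09, adjusted p = 0.00816), and 0 were higher (median -0.24). In the same comparison 1 of 30 mitotic genes, 1 of 27 processing factors and 1 of 10 histone variant genes were lower, 0 of these were higher, and 0 of 22 chaperones passed. Of 16 tested RNAs without a poly(A) tail, 2 were higher between the mutants, Rny3 (1.29, adjusted p = 0.0241) and Rn7sk (1.34, adjusted p = 0.0431), and 6 were lower, among them Rn7s1 (-3.40). The part of these genes in the differences between the mutants was not tested.

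Markers of other cells moved with the groups as well. In MaP R172H/- against MaP -/- tumors 5 of 16 tested immune markers were lower, among them Adgre1 (-1.04, adjusted p = 0.00688) and Itgam (-1.48, adjusted p = 0.011), as were 3 of 10 endothelial markers, among them Pecam1 (-0.77, adjusted p = 0.0135), and 2 of 11 fibroblast markers, Lum (-1.98, adjusted p = 0.0253) and Pdgfra (-2.49, adjusted p = 0.0265). None of 15 epithelial, 10 adipocyte and 8 skeletal muscle markers passed, with medians of 1.28, -2.91 and 1.40. Summed endothelial markers were at 255 to 416 CPM in MaP R172H/-, 209 to 799 CPM in MaP R245W/- and 370 to 731 CPM in MaP -/- tumors. Summed fibroblast markers were at 2894 to 8558, 3568 to 33701 and 4652 to 8160 CPM in the same order. In MaP R245W/- against MaP -/- tumors none of these markers passed, and the medians were 0.71 for epithelial, -1.30 for immune, -6.29 for adipocyte and 5.61 for skeletal muscle markers. Between the mutants, 7 of 9 tested skeletal muscle markers were lower in MaP R172H/- tumors (median -4.69), as were 2 of 16 immune markers, Adgre1 (-1.31, adjusted p = 0.0302) and Itgam (-1.38, adjusted p = 0.0424), and 1 of 11 fibroblast markers, Lum (-2.60, adjusted p = 0.0344). None of 15 epithelial, 10 endothelial and 10 adipocyte markers passed there, with medians of 0.44, -0.44 and 3.16. The adipocyte gene Plin1 and the muscle gene Ckm were at 0 in some tumors. The part of these cells in the histone differences was not tested.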

How the data were processed

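RNA-seq of 18 tumors was analysed. The authors mapped reads to GRCm39 using STAR (2.7.10b) and quantified the genes of GENCODE M34 using RSEM (1.3.3), per the labels and the study's methods. Raw counts in whole numbers were deposited, in which RSEM's model divides multi-mapped reads. Strand settings are not given in the sources used here. GENCODE M39 matched 56620 of 57126 identifiers. The members and all lists were chosen with earlier results of these data known.

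Separate fits compared each mutant group with MaP -/- tumors, and a fit of all 18 tumors compared the mutants, with edgeR 4.0.16 in R 4.3.3 (TMM, filterByExpr, quasi-likelihood test, Benjamini-Hochberg FDR below 0.05). CPM use TMM library sizes. MaP -/- tumors of the same mouse were treated as separate samples, and summed in an alternative, so p-values measure the spread between tumors. Alternatives were DESeq2 1.42.0, its size factors, other filters, fold change thresholds, an S-phase covariate, protein-coding genes alone and each tumor left out. A fit with the trend on GC content and length removed was chosen after seeing the data. In simulated data for the MaP R172H/- comparison, with 20786 genes tested, 53 of 100 genes changed by 1.5 and 77 of 100 changed by 3 on the log2 scale were found. For MaP R245W/- these were 37 and 84 of 100, with 21209 genes tested. The changed genes were drawn only from genes above a floor on mean level, so these rates do not cover histone genes of low level.

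Named genes were, in each type, the 3 highest and the lowest log2 fold change in MaP R172H/- against MaP -/- tumors, the highest level per length, the highest log2 fold change in MaP R245W/- against MaP -/- tumors, every H1f gene, every member outside the chromosome 13 and 3 clusters, and the 2 genes with the smallest p of each of 12 context lists. H4c1, H4c4, H4c14, H2ac7, H2ac21, H2bc4, H2bc13, H2bc15, H2bc21, H2bc22, H3c11 and the RNA gene Rn7sk were named after their values were seen. Stem-loops were searched in the 120 genome bases after the stop codon. Sequences came from the GRCm39 genome with GENCODE M39 starts. Shared sequence was counted in windows of 76 and 100 bases, in place of protein identity. Other steps used Python (3.11.15), pandas (2.3.3), scipy (1.17.1), numpy (2.4.6) and matplotlib (3.10.9).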

Additional observations from a re-analysis of the deposited data

Results flagged for a closer look

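In 5 of the 108 combinations of a level and a group that were checked, the highest or lowest tumor lay apart from the rest of its group. Chance alone gives about 1 in 20, which is close to this number. The combinations share tumors and are not independent. H1f6 was at 17.6 CPM in tumor YZ7 of the MaP R172H/- group, where the next tumor was at 0.793 CPM and the median was 0.625 CPM. In the MaP R245W/- group H1f6 was lowest in JM1133, at 0.344 CPM with the next tumor at 0.530 CPM. H1f1 was at 39.5 CPM in JM1126 of the MaP R245W/- group, with the next tumor at 93.6 CPM. H3c15 was at 8.34 CPM in JM1233 of the same group, with the next tumor at 1.401 CPM. H4c16 was at 55.01 CPM in JM779-T1 of the MaP -/- group, with the next tumor at 10.8 CPM and a median of 8.84 CPM.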

How the results depend on the processing

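The count of 32 histone genes called in MaP R172H/- against MaP -/- tumors was 27 to 41 over the alternatives, leaving aside the threshold on fold change, and 18 of the genes passed with an absolute log2 fold change above 2. With 1 tumor left out it was 30 to 41, the highest without JM779-T1. Of the 32 genes, 29 were called whichever tumor was left out and 25 in every alternative. The median log2 fold change was 1.38 to 1.92 with 1 tumor left out, and in MaP R245W/- against MaP -/- tumors it was 0.76 to 1.299. In that comparison the count stayed at 0 with each tumor left out (0 to 0), and was 7 with DESeq2. The count of 14 between the mutants was 1 with an absolute log2 fold change above 2, 26 with the S-phase score as covariate (2.6% of all genes higher and 5.71% lower), 8 with the trend on GC content and length removed, and 9 to 16 with 1 tumor left out, the lowest without JM1126. The summed levels of the types moved by less than the spread between tumors. Among the log2 fold changes of genes chosen by the naming rule, direction changed in 26 of 2346 values under the alternatives. Log2 fold changes with 1 tumor left out ran, in MaP R172H/- against MaP -/- tumors, from -0.33 to 0.055 for H2bc23, -0.30 to 0.15 for H3c10, -0.15 to 0.27 for H3c15 (-0.36 without the GC trend), -0.033 to 0.30 for Mki67 and -0.043 to 0.24 for Npat, and also from -0.069 to 1.42 for H2bc21, which the naming rule did not choose. In MaP R245W/- against MaP -/- tumors they ran from -0.022 to 0.45 for H1f1 (-0.11 with the S-phase covariate), -0.21 to 0.075 for H2ac25 (0.18 without the GC trend) and -0.69 to 0.74 for H2bc27 (-0.53 with the S-phase covariate). Between the mutants they ran from -0.16 to 2.73 for H1f6 (-0.20 with DESeq2), -0.17 to 0.35 for H1f1, -0.041 to 0.21 for H1f2 (-0.011 without the GC trend) and -0.0029 to 1.14 for H2bc26, and H2ac4 was at -0.090 without the GC trend. The cause was not tested. No paired analysis was possible because the labels carry no replicate numbers that tie tumors of different groups. The number of tumors, levels under 1 CPM in many H2A genes and sequence shared between histone genes limit these values.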
